A study of Capra hircus with 36 samples.

Results

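The spleen is described here against the other organs of the same goats, through the mature miRNAs of its small RNA libraries. The members are the libraries labelled spleen, from both altitudes, which make 6 of the 36 libraries of the series. The other 30 come from heart, kidney, liver, lung and longissimus muscle. The question is which miRNAs are enriched in or depleted from spleen, and which tissue comes next.

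The study set out to find miRNA changes that go with life at high altitude. It compared Tibetan goats (Capra hircus) living at 3000 m with low-altitude goats living at 600 m. From each population 3 adult females, labelled as older than 3 years, gave all 6 tissues, so that every goat has 1 library per tissue. Small RNA was prepared with the TruSeq kit, sequenced on a HiSeq 2500 and counted per mature miRNA. The deposited tables list 1391 miRNAs, of which 447 match a goat entry of miRBase, 586 match another mammal and 358 match none.

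Library totals ran from 7108635 to 14407748 counts, and the 6 spleen libraries hold 55945279 counts together. The spleen of high-altitude goat 1 has the lowest total among them, 7312782 counts, and that of high-altitude goat 3 the highest, 11005084. Levels are given in counts-per-million (CPM) of the library total, and n is 6 libraries for each tissue. The spleen library of high-altitude goat 1 stands apart from the other 5. It has 0 counts for 47 miRNAs that have reads in all of the other 5 spleen libraries, where the same number is between 5 and 16 for each of the rest. Its mean correlation with the other spleen libraries across 409 miRNAs is 0.841, the lowest of the 6, and its RNA integrity is the lowest of the spleen samples in the study's sample table. Where the call of a named miRNA against the mean of the other tissues changes without it, that is given.

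A miRNA is a short RNA that guides Argonaute proteins to messenger RNAs through its seed, the bases from position 2 to position 8. The spleen filters blood and is at the same time a lymphoid organ: white pulp holds B and T lymphocytes, red pulp holds macrophages and blood, and a capsule with trabeculae of smooth muscle and connective tissue frames both. Ruminant spleen has a muscular capsule, so blood cell miRNAs and smooth muscle miRNAs are both known from such tissue.

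The most abundant miRNA of spleen was miR-143-3p, known from smooth muscle, where it is made from the same transcript as miR-145. Its share of all counts was 35.4% (95% exact binomial interval 35.3% to 35.4%), 39.8% (39.7% to 39.8%) and 36.7% (36.6% to 36.7%) in the spleens of high-altitude goats 1, 2 and 3. In low-altitude goats 1, 2 and 3 it was 40.3% (40.2% to 40.3%), 55.9% (55.9% to 55.9%) and 44.5% (44.4% to 44.5%). The lowest spleen library lies above every one of the 30 libraries of other tissues, where the highest level was 300283 CPM in the lung of low-altitude goat 2. Another miRNA reached such a share elsewhere: miR-10b-5p took 40.2% of the counts in the kidney of low-altitude goat 1. These intervals, like the detection floors below, cover counting error only, since PCR reads without molecular identifiers are not independent molecules.

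**Figure D1:**
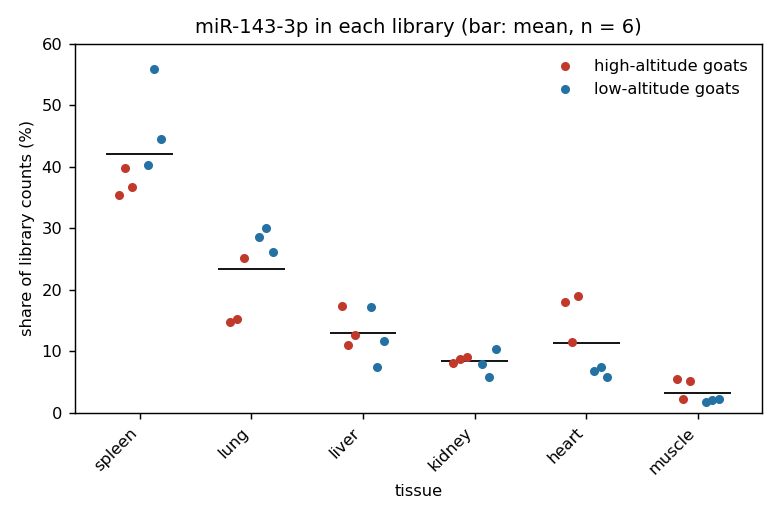
Share of all counts taken by miR-143-3p in each library, in percent, by tissue and population, with each point 1 library. The 6 spleen libraries lie between 35.4% and 55.9%, above all libraries of the other 5 tissues.

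In spleen, the top miRNA of each library held 42.1% ± 7.48 (SD, n = 6) of the counts, against 22.9% ± 2.22 for the mean of the other 5 tissues of the same goat. It was miR-143-3p in each spleen library. The share was higher in spleen in 6 of 6 goats, by 19.2 percentage points, with a two-sided exact permutation p of 0.03125, the smallest that 6 goats allow, and 0.09375 after adjustment over the 3 measures of composition. By tissue the top share averaged 31.5% in kidney, 25.7% in lung, 24.0% in muscle, 17.7% in liver and 15.6% in heart. The kidney's exceeded the spleen's in high-altitude goats 1 (39.6%) and 3 (39.8%). The 10 most abundant miRNAs together took 72.5% ± 2.15 in spleen and 75.6% ± 3.32 in the other tissues (exact permutation p = 0.21875, adjusted 0.2188, higher in spleen in 2 of 6 goats). Spleen's value lies between those of lung (70.7%) or liver (69.9%) and those of heart (73.3%), kidney (80.3%) or muscle (83.6%). Spleen had 260.3 ± 17.8 miRNAs at 10 CPM or more, and the other tissues had 246 ± 15.1 (exact permutation p = 0.125, adjusted 0.1875, higher in 5 of 6 goats), with 263 in lung, 259.8 in liver, 258 in kidney, 228.3 in heart and 219.5 in muscle, so that spleen is near the first 3. At 1 CPM or more the numbers were 463 and 421 (exact permutation p = 0.03125, spleen higher in 6 of 6 goats), but liver, with 462.5, was level with spleen and lung had 452.5. At 100 CPM or more they were 125 and 123.1 (exact permutation p = 0.71875), with liver (138.3), lung (133.7) and kidney (131.5) above spleen.

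After miR-143-3p, the most abundant spleen miRNAs by mean were miR-26a-5p, miR-142-5p, miR-181a-5p, miR-21-5p, miR-191-5p, let-7f-5p, miR-22-3p, miR-10b-5p and miR-148a-3p. Of these 10, 4 are among the miRNAs enriched in spleen by the thresholds given next: miR-143-3p, miR-142-5p, miR-21-5p and miR-191-5p. The other 6 are abundant in several tissues. Among them, miR-26a-5p had 94563 ± 29451 CPM in spleen and 173832 in lung, the highest tissue. Another, miR-148a-3p, a miRNA rich in hepatocytes, had 14893 ± 8746 CPM in spleen and 99723 in liver, its highest tissue.

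Enrichment and depletion were read from an edgeR fit over all 36 libraries and all 1391 miRNAs. A miRNA was called when its adjusted p was under 0.05 and its log2 fold change was at least 1.5 in size. In this fit the mean of the other 5 tissues is the mean of their fitted log2 levels, not of their CPM. Where a single tissue is far above the rest, it therefore lies well below the mean CPM. Against the mean of the other 5 tissues, 150 miRNAs were higher in spleen, which is 10.8% of those tested, and 57 were lower, which is 4.1%. With the goat as a block 95 were higher and 48 lower. Many of the higher ones are rare: 47 had a spleen mean under 1 CPM, 50 had at least 10 CPM and 28 had at least 100 CPM. Reads were present in all 6 spleen libraries for 66 of the 150. Without the spleen of high-altitude goat 1, 122 were higher, 118 of them among the 150, and 42 of the 50 at 10 CPM kept their call.

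The scaling of the libraries bears on these counts. The TMM factor of edgeR, which multiplies a library total, had a mean of 1.33 in spleen, 1.43 in lung, 1.31 in liver, 1.03 in kidney, 0.78 in heart and 0.599 in muscle. Fitted values for spleen against heart or muscle are therefore below the ratios of CPM. Across 308 miRNAs whose mean over the tissues reaches 10 CPM, the median log2 fold change of spleen was -0.16 with TMM, and 0.26 when libraries were scaled by their totals alone. With totals alone, 198 miRNAs were higher and 38 lower. All 150 miRNAs called higher with TMM were also called higher with totals alone. p-values measure the spread between these samples.

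In CPM, lung and liver came next to spleen for most enriched miRNAs. Spleen had the highest mean of the 6 tissues for 47 of the 50 at 10 CPM. The next highest tissue of the 50 was lung for 25, liver for 20, kidney for 4, muscle for 1 and heart for 0. In the fit, which is scaled by TMM, the smallest fold change was against lung for 19, liver for 15, muscle for 7, kidney for 6 and heart for 3. Against single tissues, 58 miRNAs were higher than in lung (4.17%), 61 than in liver (4.39%), 67 than in kidney (4.82%), 92 than in heart (6.61%) and 102 than in muscle (7.33%). In the other direction, 55 were lower than in lung (3.95%), 65 than in liver (4.67%), 117 than in kidney (8.41%), 71 than in heart (5.1%) and 109 than in muscle (7.84%). Of the 150, 56 have a goat entry in miRBase, 57 a match in another mammal and 37 no match.

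Blood cell miRNAs were high in spleen. The leukocyte list holds 15 mature forms of 7 precursors known from lymphoid and myeloid cells, and together they took 5.86% ± 2.16 of spleen counts, between 2.54% in high-altitude goat 1 and 8.65% in high-altitude goat 3. Lung followed with 2.06% and liver with 1.68%, then kidney with 0.506%, heart with 0.432% and muscle with 0.186%. The most abundant form was miR-142-5p. This list, like those below, was chosen with earlier results of these data known, so its counts describe the data and are not a test. Against the mean of the other tissues 10 of the 15 forms were called higher and 0 lower, beside the 10.8% and 4.1% of all miRNAs. Of the 10 forms with at least 10 CPM in a tissue, 7 were higher, beside 50 of 409 miRNAs at that level (12.2%, with 53 or 13.0% lower). The median log2 fold change was 2.43, where the same median over 409 miRNAs was -0.16. The 7 include miR-223-3p, whose call was lost with the goat as a block (0.92). Its sign turned without the spleen of low-altitude goat 1 (-3.82). In bulk tissue, fewer cells of a type and less RNA per cell cannot be told apart.

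The sharpest of them was miR-142-3p, a miRNA of blood cells of nearly every lineage. It had 4036, 4883 and 4249 CPM in the spleens of high-altitude goats 1, 2 and 3, and 3506, 3859 and 3491 CPM in those of low-altitude goats 1, 2 and 3. The 30 libraries of the other tissues had 13.1 at the lowest, 114 at the median and 602 CPM at the highest, in the lung of low-altitude goat 1. Every spleen library is above every other library, and the 6 spleens are close to each other. The mean of 4004 ± 523 CPM was 9.14-fold that of lung, the next tissue, with 438 ± 135 CPM. The log2 fold change was 4.49 ± 0.24 (SE) against the mean of the other tissues, with an adjusted p of 9.94e-15. It was 3.20 against lung, 3.41 against liver, 4.61 against kidney, 5.09 against heart and 6.14 against muscle. The call against each of the 5 tissues held in 23 of 23 alternative analyses.

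The other arm of that hairpin, miR-142-5p, was more abundant and more uneven. Its levels ran from 7168 CPM in high-altitude goat 1 through a median of 31893 to 54417 CPM in high-altitude goat 2. In the other tissues the lowest was 415, the median 2913 and the highest 21862 CPM, in the liver of high-altitude goat 1. The spleen of high-altitude goat 1 falls inside the range of the other tissues, and the other 5 spleens lie above it. Liver was next with 11637 ± 5432 CPM. Against the mean of the others it was higher by a log2 of 2.92 ± 0.25 (adjusted p = 3.79e-10), and 3.18 without the spleen of high-altitude goat 1.

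In lymphocyte miRNAs the next tissue by mean CPM was again lung. miR-150-5p, a miRNA of mature B and T cells that represses the transcription factor MYB, had from 1689.6 through a median of 3879 to 6952 CPM in spleen, with the lowest value in low-altitude goat 2. The other libraries had 21.1, 246 and 1863 CPM at the lowest, median and highest, the last in the lung of high-altitude goat 2. Only that lung library reaches the lower spleen values, those of low-altitude goats 2 and 3, while the other 4 spleens are clear of all 30. Lung was next with 779 ± 600 CPM, and the log2 fold change was 3.34 ± 0.22 (adjusted p = 3.12e-12). In the fit it was smallest against muscle, 1.67, and it was 2.54 against lung.

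miR-155-5p, made from the BIC transcript in activated lymphocytes and macrophages, had from 479 through 668 to 2474 CPM in spleen, the highest in high-altitude goat 1. In the other tissues it had from 21.2 through 89.4 to 449 CPM. The groups do not overlap, though the lowest spleen and the highest lung library lie near each other. Lung was next with 295 ± 96.9 CPM. Its log2 difference was 2.87 ± 0.23 (adjusted p = 1.16e-10) against the mean and 1.67 against lung. Without the spleen of high-altitude goat 1 it was 2.44 against the mean, and the call against each tissue was lost.

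Further leukocyte miRNAs were called with less distance to lung. miR-146a-3p, from the gene induced by NF-kB that restrains Toll-like receptor signalling, had 11369 ± 5372 CPM in spleen and 5791 ± 1034 in lung, with a log2 fold change of 2.44 (adjusted p = 4.43e-06). For this precursor the 3p form is the only one listed, although 5p is the usual guide arm, and which arm the counts describe was not tested. miR-342-3p, from an intron of the EVL gene, had 3266 ± 1428 CPM in spleen and 1293 ± 317 in lung, with a log2 fold change of 1.67 (adjusted p = 1.69e-06). Both were higher in spleen than in any other tissue of the same goat in 5 of 6 goats.

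Other leukocyte miRNAs were not set apart in spleen. miR-146b-5p had 673 ± 454 CPM in spleen and 2808 ± 1419 in lung, with a log2 fold change of 0.78 (adjusted p = 0.399). miR-223-3p, known from granulocytes and other myeloid cells, had 474, 580.0 and 864 CPM in high-altitude goats 1, 2 and 3, 310.4 CPM in low-altitude goat 1, and 0 in low-altitude goats 2 and 3. Lung had 394 ± 533 CPM, or 180.3 without the lung of high-altitude goat 2, which had 1461 CPM. The spleens thus split into 4 with reads and 2 without. The fitted log2 fold change of 2.42 (adjusted p = 0.035) rests on single libraries: it was -3.82 (adjusted p = 0.0456) without the spleen of low-altitude goat 1. It lost its call without the spleen of high-altitude goat 1 (2.49, adjusted p = 0.0547), of high-altitude goat 2 (2.51, adjusted p = 0.0515) or of high-altitude goat 3 (2.34, adjusted p = 0.078). With the goat as a block it was 0.92 (adjusted p of 1).

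**Figure D2:**
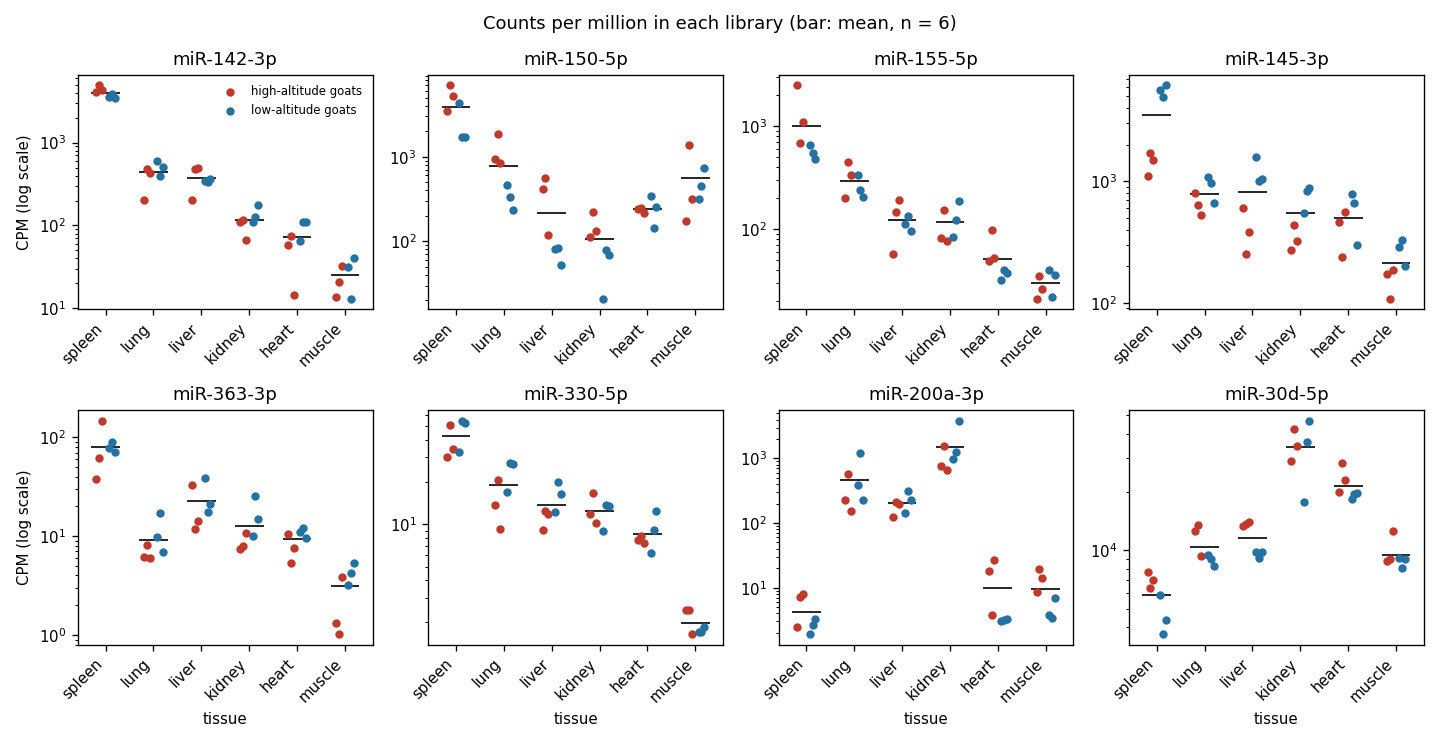
Level of 8 miRNAs in every library, as CPM on a log axis, by tissue and population, with each point 1 library. For miR-142-3p the 6 spleens lie from 3491 to 4883 CPM, above all 30 others, and for miR-30d-5p they lie from 3688 to 7736 CPM, below all 30 others.

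The miRNAs of red cells gave a mixed picture. miR-144, switched on by GATA1 in erythroblasts, is the precursor of the 2 forms called higher. miR-144-3p had 0 CPM in the spleen of high-altitude goat 1, and 724, 788, 690.2, 876 and 1717 CPM in those of high-altitude goats 2 and 3 and low-altitude goats 1, 2 and 3. Liver, the next tissue, had 259 ± 147 CPM, and the lung libraries were all at 0. The 5 spleens with reads are above all other libraries, and the first spleen is at the bottom of the range. Spleen was at least 2700-fold above lung at a floor of 3 counts per library, and miR-144-5p was at least 386-fold above it. These floors take the zeros of lung as an absence of miR-144, which was not tested. Against the mean of the other tissues the log2 fold change of miR-144-3p was 6.28 ± 1.21 (adjusted p = 0.000385), while its difference from liver, 1.52, had an adjusted p of 0.965.

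The other erythroid precursor, miR-486, is also a muscle miRNA encoded in the ANK1 gene. miR-486-5p had 11988 CPM in the spleen of high-altitude goat 1, 0 in high-altitude goats 2 and 3, and 3624, 3139 and 5771 CPM in low-altitude goats 1, 2 and 3. Muscle had 22874 ± 11342 CPM. The fitted log2 fold change was -0.97 (adjusted p of 1), and it was -10.11 (adjusted p = 0.00142) without the spleen of high-altitude goat 1. miR-486-3p was lower in spleen, at -4.56 (adjusted p = 0.000256), and at -6.21 without that spleen. With the forms of its precursor summed the value was -1.11 (adjusted p of 1). Of the 4 erythroid forms, all with at least 10 CPM in a tissue, 2 were higher and 1 lower (12.2% and 13.0% over all miRNAs at that level), with a median log2 fold change of 2.08, or 1.66 with forms absent from a tissue set to the floor. Their summed share was 0.5% in spleen, 0.718% in lung, 0.646% in liver, 2.25% in heart, 2.29% in muscle and 0.0451% in kidney. miR-451 is not analysed here, since no form of it is listed.

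For the proliferation clusters the count of calls depends on the scaling. Of the 17 forms of the miR-17-92 and miR-106b-25 clusters, which act in dividing cells and in lymphocyte survival, 9 had at least 10 CPM in a tissue, and 2 of these were called higher and 0 lower, with a median log2 fold change of 0.93. Over all miRNAs at that level 12.2% were higher, and 9 forms are too few to set a count of 2 apart from that. With RLE factors 3 were higher and with library totals alone 4. miR-106b-5p was just short of the fold threshold (adjusted p = 1.2e-07) and passed it in 10 of 23 alternatives. Among these was the fit without the spleen of high-altitude goat 1. miR-19a-3p had from 133 through 349 to 457.5 CPM in spleen, against 123 ± 95.3 in liver, the next tissue, and the ranges overlap. On the log2 scale the difference was 1.75 (adjusted p = 0.000852), and 1.46 without all tissues of high-altitude goat 1, below the fold threshold. miR-93-5p had from 851 through 1233 to 1763 CPM in spleen and 719.5 ± 217 CPM in liver, with a log2 fold change of 1.59 ± 0.14 (adjusted p = 1.31e-09). miR-92a-3p, the most abundant form, had 5150 ± 3074 CPM and a log2 fold change of 0.58 (adjusted p = 0.0683). Together the forms took 1.33% ± 0.438 of spleen counts and 0.887% of lung counts. miR-18a and the 5p form of miR-17 are not analysed here.

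A related cluster on the X chromosome, known as miR-106a-363, also had forms called higher. miR-363-3p had 38.0, 61.4 and 146 CPM in high-altitude goats 1, 2 and 3 and 78.4, 88.6 and 70.2 CPM in low-altitude goats 1, 2 and 3. The other tissues had from 1.02 through 9.69 to 39.1 CPM. The lowest spleen is level with the highest liver library, that of low-altitude goat 1, and the other 5 spleens are above all 30. Liver was next with 22.8 ± 11.0 CPM. It was higher by a log2 fold change of 2.57 ± 0.29 (adjusted p = 1.2e-07), and the call against each of the 5 tissues was lost without the spleen of high-altitude goat 3. Of the other members, named after their values were seen, miR-18b-5p (3.09, adjusted p = 0.00146), miR-20b-5p (2.39, adjusted p = 0.00587) and miR-106a-5p (5.33, adjusted p = 0.00357) were higher at spleen means of 16.4, 15.4 and 14.3 CPM. They have 0 counts in 1, 1 and 2 of the spleens. The spleen mean of miR-18b-5p was 10.2 CPM without low-altitude goat 3, and that of miR-20b-5p was 9.86 CPM without high-altitude goat 3. miR-18b-5p was at 2.23 (adjusted p = 0.0537) without all tissues of low-altitude goat 3, and miR-20b-5p at 1.91 (adjusted p = 0.0957) without those of low-altitude goat 1.

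The miR-181 family, which tunes lymphocyte development and T cell receptor sensitivity, was high in spleen and in lung alike. miR-181a-5p had 27517 ± 8741 CPM in spleen and 24587 ± 8785 in lung, with a log2 fold change of 0.83. miR-181b-5p had 882 ± 418 CPM in spleen and 598 ± 275 in lung, with a log2 fold change of 1.8 (adjusted p = 2.17e-07), which was 1.32 without the spleen of high-altitude goat 1, below the fold threshold. Of 5 forms with at least 10 CPM in a tissue, 1 was higher, with a median of 0.83, and over all 6 forms 2 were higher; with 12.2% and 10.8% over all miRNAs, the forms are too few to set these counts apart. miR-181d is not analysed here.

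miR-21-5p, a miRNA induced in inflammation and in activated immune cells, had from 9772 through 27475 to 35655 CPM in spleen and from 949 through 5500.1 to 23327 CPM elsewhere. Only the spleen of low-altitude goat 1 lies within the range of the others. Lung was next with 15316 ± 4200 CPM. Over all other tissues the log2 fold change was 1.83 ± 0.22 (adjusted p = 2.17e-07), with 0.87 against lung and 0.90 against liver, neither past the thresholds.

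miR-191 and miR-425, which neighbour each other on chromosome 22 and are known from an intron of DALRD3, were both enriched. miR-191-5p had 26297 ± 15587 CPM in spleen and 10847 ± 3883 in lung, with a log2 fold change of 2.17 ± 0.31 (adjusted p = 5.36e-06). It was 1.52 without the spleen of high-altitude goat 1, which has the highest level, 51773 CPM. The remaining 3 forms were named after their values were seen. miR-425-5p had from 138.5 through 224 to 602.5 CPM in spleen, while the median of the other 30 libraries was 0 CPM and their highest 174 CPM, in the lung of high-altitude goat 2. That lung library alone reaches into the range of the spleens. The fitted log2 fold change was 6.91 ± 1.21 (adjusted p = 0.000187), and 3.64 (adjusted p = 0.154) with the high-altitude goats alone. Whether the zeros elsewhere are an absence of miR-425-5p was not tested. miR-425-3p (4.61, adjusted p = 0.00367) and miR-191-3p (1.64, adjusted p = 4.98e-05) were also higher, the latter at 1.27 without the spleen of low-altitude goat 1 and 1.49 without that of high-altitude goat 3. For miR-425-3p the high-altitude goats alone gave 1.74 (adjusted p = 0.639).

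Smooth muscle miRNAs were high in spleen as well. The 8 forms of miR-143 and miR-145, which hold smooth muscle in its contractile state, took 42.8% ± 7.72 of spleen counts, 23.6% in lung, 13.0% in liver, 11.5% in heart, 8.48% in kidney and 3.19% in muscle. In spleen miR-143-3p alone held 42.1% of counts, so the summed share there is nearly its own. Of the 8 forms 6 were called higher and 0 lower, and all 4 with at least 10 CPM in a tissue were among them, beside 10.8% and 12.2% higher over all miRNAs, with a median log2 fold change of 1.81.

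miR-143-3p itself had 420675 ± 74765 CPM in spleen, which was 1.8-fold the 233301 ± 66693 CPM of lung. Its log2 fold change was 1.61 ± 0.25 (adjusted p = 1.36e-05), and spleen was the highest tissue in 6 of 6 goats. Against lung it was 0.82 (adjusted p = 0.169) and against heart 1.24, so the thresholds were passed against liver, kidney and muscle. Without the spleen of low-altitude goat 2 it was 1.48, below the fold threshold, and with the high-altitude goats alone it was 1.12 (adjusted p = 0.113).

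miR-145-3p had 1109, 1697 and 1498 CPM in the spleens of high-altitude goats 1, 2 and 3, and 5656, 4974 and 6147 CPM in those of low-altitude goats 1, 2 and 3. The other tissues had from 108 through 536 to 1572 CPM, the last in the liver of low-altitude goat 1. The low-altitude spleens are clear of all other libraries, and of the high-altitude spleens only that of goat 2 is, while those of goats 1 and 3 lie under that liver library. Liver was next with 809.8 ± 492 CPM. It was higher by a log2 fold change of 2.0 ± 0.24 (adjusted p = 2.17e-07), and the thresholds were passed against each of the 5 tissues. With the high-altitude goats alone it was 1.36. Low-altitude libraries also lay above high-altitude libraries in other tissues. In liver the highest high-altitude value was 604 CPM and the lowest low-altitude value 1005 CPM. These were 436 and 549 CPM in kidney, and 188 and 201 CPM in muscle. In lung and heart the populations overlapped.

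In spleen, the partner arm of miR-143-3p showed the same order of populations. miR-143-5p had 97.5, 86.7 and 94.1 CPM in high-altitude goats 1, 2 and 3, and 520.2, 418 and 535 CPM in low-altitude goats 1, 2 and 3, with a log2 fold change of 2.08 ± 0.21 (adjusted p = 2.23e-08) against the mean of the other tissues. miR-145-5p had 3453 ± 1940 CPM in spleen and 2198 ± 1490 in lung, with a log2 fold change of 1.61 (adjusted p = 0.00014), which was 1.49 without the spleen of high-altitude goat 1. The spleens of the populations were not tested against each other.

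Vessel and connective tissue miRNAs had no call. miR-126-3p, the endothelial miRNA from an intron of EGFL7, had 3962 ± 1584 CPM in spleen and 19452 ± 10771 in lung, with a log2 fold change of -1.42 (adjusted p = 2.13e-05), or -1.63 without the spleen of high-altitude goat 2, which is past the fold threshold. Of both endothelial forms, 0 were called in either direction, with a median of -0.65. Of 8 mesenchymal forms of miR-199 and miR-214 with at least 10 CPM in a tissue, 0 were called, with a median of 0.24, or -0.02 with absent forms set to the floor. Over all miRNAs at that level 12.2% were higher and 13.0% lower. The forms of both lists are too few to set counts of 0 apart from that. The 9 forms took 1.41% of spleen counts and 1.66% of lung counts.

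Past both thresholds against each of the 5 tissues, spleen was higher for 7 miRNAs, which is 0.503% of those tested. These are miR-142-3p, miR-150-5p, miR-155-5p, miR-145-3p, miR-363-3p, and miR-158-3p and miR-217-3p of the group without a miRBase match, whose numbers are the study's own. The miR-217-3p of that group had 3.56, 8.47, 13.6, 33.9, 1.96 and 6.78 CPM in the 6 spleens. Elsewhere it had at most 1.31 CPM, in the liver of high-altitude goat 3, and 0 in all libraries of kidney, heart and muscle. The 6 spleens are above all other libraries. Spleen was at least 39.5-fold above kidney, 45.3-fold above heart and 49.2-fold above muscle. Without the spleen of low-altitude goat 1 these floors were 23.9, 27.4 and 29.7, and the call against each tissue held in 15 of 23 alternatives. It was lost without the spleen of low-altitude goat 1 and with DESeq2, where the call against the mean was lost too (7.79, adjusted p = 0.0978).

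The miR-158-3p of the same group, named after its values were seen, had 425 CPM in high-altitude goat 3, and 465.7 and 646 CPM in low-altitude goats 2 and 3. In the other 3 spleens it had 1.59 CPM or 0. It was at 0 in all libraries of lung, liver, heart and muscle, and kidney had at most 1.97 CPM. So 3 of the spleens carry nearly all of its reads, at least 713-fold above liver and 866-fold above lung on the mean. With the goat as a block it no longer passed against each tissue, and 8 miRNAs were then higher than in each.

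Another measure needs no fit. The 6 spleen libraries were all above the 30 others for 8 miRNAs (0.575%): miR-142-3p, miR-143-3p, miR-155-5p, miR-330-5p, miR-454-3p, the miR-217-3p described above, and a pair of rare ones. Of these, miR-330-5p and miR-454-3p were named after their values were seen. miR-330-5p had from 30.4 through 43.1 to 54.5 CPM in spleen and up to 27.4 CPM elsewhere, with a log2 fold change of 1.82 ± 0.21 (adjusted p = 1.78e-07). miR-454-3p, of the miR-130 and miR-301 seed family, had 57.1 ± 16.9 CPM in spleen, and its log2 fold change of 1.43 was below the fold threshold, or 1.57 without the spleen of high-altitude goat 2. Its relatives miR-130b-3p (172 ± 40.4 CPM) and miR-301b-3p (24.8 ± 9.02 CPM), also chosen after the values were seen, both had log2 fold changes of 1.8 and were called higher.

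The miRNAs depleted from spleen had their highest levels in several organs. Of the 57 called lower, the highest tissue was kidney for 14, lung for 13, heart for 12, muscle for 12 and liver for 6. Spleen had the lowest mean of the 6 tissues for 27 of them. Most were low against some tissues only: 7 passed the thresholds against 1 tissue, 19 against 2, 19 against 3, 10 against 4 and 2 against all 5. For 6 of the 57, spleen was also past the thresholds upward against at least 1 tissue.

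Striated muscle miRNAs set heart and muscle apart from spleen. Of 9 forms with at least 10 CPM in a tissue, 7 were lower and 0 higher, with a median log2 fold change of -2.94, or -2.69 with absent forms set to the floor. Over all miRNAs at that level 13.0% were lower. They took 0.305% of spleen counts, 27.4% of heart counts and 48.8% of muscle counts. Of the 9, miR-133a-3p and miR-133b-5p have equal counts in every library. With that pair counted once, 6 of 8 were lower and the shares were 0.157% in spleen, 15.0% in heart and 25.2% in muscle. Of those lower, miR-206-3p (-3.20, adjusted p = 0.0293) lost its call with the goat as a block (-2.20, adjusted p = 0.141). It was also lost without any 1 of the 6 spleen libraries, that of high-altitude goat 1 included (-3.26, adjusted p = 0.0694). miR-133a-3p, which restrains muscle cell growth, had 1482 ± 491 CPM in spleen and 236115 ± 33372 in muscle. It was still above lung, where it had 525 ± 421 CPM, by a log2 fold change of 1.53 (adjusted p = 0.0242).

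miR-1-3p had 17.4 ± 4.44 CPM in spleen and a log2 fold change of -4.70 (adjusted p = 0.000553). miR-208b-3p and miR-499-5p, which lie in introns of myosin heavy chain genes, had 18.1 ± 18.2 and 39.2 ± 30.6 CPM in spleen against 13405 ± 2604 and 6849.5 ± 860.2 CPM in heart, the highest tissue for both. Their log2 fold changes were -3.33 and -2.96.

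The liver and epithelial lists were low as well. miR-122-5p, the hepatocyte miRNA, had from 3.56 through 17.6 to 36.7 CPM in spleen, while the 6 liver libraries averaged 50587 ± 65316 CPM, or 24720 without that of high-altitude goat 3. On the log2 scale the difference was -3.73 (adjusted p = 0.00357) against the mean and -11.29 against liver. Both hepatocyte forms were lower (13.0% over all miRNAs with at least 10 CPM in a tissue), with a median of -3.35, and took 0.00214% of spleen counts and 5.07% of liver counts, or 2.48% without that liver.

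The miR-200 family, which keeps epithelial cells from changing to a mesenchymal state by repressing ZEB1 and ZEB2, took 0.00478% of spleen counts, 0.84% in lung, 0.3645% in kidney and 0.116% in liver. Heart (0.00242%) and muscle (0.00269%) lie below spleen. Of 7 forms with at least 10 CPM in a tissue, 4 were lower (13.0% over all miRNAs at that level) and 0 higher, with a median of -3.69, or -3.89 with absent forms set to the floor. miR-200c-3p had 1.12 ± 0.582 CPM in spleen and 429 ± 193 in lung, with a log2 fold change of -3.69 (adjusted p = 3.63e-05). miR-141-3p had 35.6 ± 7.10 CPM in spleen and 6533 ± 2538 in lung, with -2.57 against the mean, although spleen was above heart by 1.88 and above muscle by 1.95. miR-429-3p was lower at -4.59 (adjusted p = 7.86e-07), and miR-200b-3p had -4.73 with an adjusted p of 0.143.

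miRNAs of ciliated cells, known from the airway lining, made up little of the spleen counts. Of 7 forms of miR-34b, miR-34c and miR-449 with at least 10 CPM in a tissue, 2 were lower and 0 higher, with a median of -1.29, beside 13.0% lower over all miRNAs at that level. With library totals alone 1 was higher and 0 lower. Together they took 0.003045% of spleen counts and 0.718% of lung counts, while liver (0.00341%) was near spleen and kidney (0.0019%), heart (0.000695%) and muscle (0.00234%) lay below it. miR-34c-5p had 19.1 ± 13.5 CPM in spleen and 5608 ± 3134 in lung, with a log2 fold change of -1.95 (adjusted p = 0.00056), or -1.45 with library totals alone. Of 3 forms of the miR-183, miR-96 and miR-182 cluster, known from sensory organs, 2 were lower, with a median of -3.09, or -3.69 with absent forms set to the floor. miR-182-5p had 9.77 ± 12.2 CPM in spleen and 353 ± 195 in lung (-2.63, adjusted p = 0.000254, with 4.94 CPM and -3.58 without the spleen of high-altitude goat 1). miR-876-5p, chosen after its values were seen, had 0 counts in all 6 spleens and 22.0 ± 13.7 CPM in lung, which makes spleen at least 67.1-fold lower.

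In the fit, a pair of miRNAs, 0.144% of those tested, were lower in spleen than in each of the 5 tissues. miR-200a-3p had 2.46, 7.10 and 7.996 CPM in high-altitude goats 1, 2 and 3, and 1.90, 2.65 and 3.23 CPM in low-altitude goats 1, 2 and 3. The other tissues had from 3.03 through 177 to 3777 CPM. The spleens overlap with libraries of heart and muscle but of no other tissue, and spleen was the lowest tissue in 5 of 6 goats. The median was 2.94 CPM in spleen, 3.56 in heart and 7.82 in muscle, so spleen and heart are close in CPM. Kidney was highest with 1498 ± 1166 CPM and muscle the lowest of the others by mean with 9.37 ± 6.24. Heart had 9.71 CPM, or 6.33 without that of high-altitude goat 3, which is below muscle. The smallest fitted difference was against heart, -1.67. Against the mean of the other tissues the log2 difference was -5.03 ± 0.42 (adjusted p = 3.58e-10). The call against each tissue held in 21 of 23 alternatives, and was lost with library totals alone and with the low-altitude goats alone.

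The other was miR-379-5p, from the imprinted DLK1-DIO3 region. It had 1.91, 15.7, 9.18, 18.3, 20.5 and 24.0 CPM in the 6 spleens and from 0.314 through 147 to 1331 CPM elsewhere. The ranges overlap, and spleen was lowest in 3 of 6 goats. Muscle averaged 169 CPM, but 10.6 CPM without that of low-altitude goat 3, which is below the spleen mean of 14.9 CPM. The log2 fold change was -4.22 ± 0.90 (adjusted p = 0.000858). This call against each tissue was kept in 6 of 23 alternatives: it was lost without any 1 of the 6 spleen libraries, and with the goat as a block, where 1 miRNA remained lower than in each.

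A more even depletion was that of miR-30d-5p, the 1 miRNA (0.0719%) for which all 6 spleens lie below all 30 other libraries. It was named after its values were seen, and its family is known from kidney epithelium. It had from 3688 through 6139 to 7736 CPM in spleen and from 8075 through 13460.4 to 46730 CPM elsewhere. Spleen was the lowest tissue in 6 of 6 goats, and muscle was the lowest of the others with 9459 ± 1569.6 CPM. The log2 fold change was -1.90 ± 0.20 (adjusted p = 2.24e-08), and -1.42 with library totals alone, short of the fold threshold.

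Other abundant miRNAs chosen in the same way were low. miR-30a-5p had 12513 ± 2368 CPM in spleen and 93544 ± 8732 in kidney, with a log2 fold change of -2.11 (adjusted p = 6.33e-06), but -0.09 against muscle. miR-24-3p had 1197 ± 715 CPM in spleen and 6553 ± 2799 in heart, with -2.08 (adjusted p = 4.5e-05). miR-31-5p, a miRNA of several epithelia, had 18.2 ± 14.1 CPM in spleen and 1779 ± 506 in liver, with -2.53 (adjusted p = 1.72e-08), and was above heart by 1.92. miR-205-5p, of stratified and airway epithelium, had 1.06 ± 0.549 CPM in spleen and 387 ± 279 in lung, with -4.15 (adjusted p = 0.000227).

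In the miR-99, miR-100 and miR-125 family, 2 forms were called, and their levels in spleen fall into groups by population. miR-99a-5p had 492, 649.5 and 698 CPM in high-altitude goats 1, 2 and 3, and 10091, 9117 and 13326 CPM in low-altitude goats 1, 2 and 3. miR-100-5p had 902, 1134 and 2012 CPM in the former and 17259, 10945 and 17536 CPM in the latter. Every high-altitude spleen is below every low-altitude spleen for both. Spleens were not tested against each other. The interaction, the difference of spleen from the other tissues between the populations, was not called (log2 of -1.69 and -1.90, adjusted p of 1 for both, edgeR).

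Against the mean of the other tissues miR-99a-5p was lower by -1.70 (adjusted p = 0.0198) and miR-100-5p by -1.54 (adjusted p = 0.0302), and both fell short of the thresholds with the goat as a block (-1.28 and -1.22) and with library totals alone (-1.05 and -0.87). In mean CPM, miR-99a-5p in spleen (5729) was above lung (3771) and muscle (4008) and below liver, kidney and heart. The spleen mean of miR-100-5p (8298) was above lung (7865), kidney (7010) and muscle (5119) and below liver and heart. Without the spleen of low-altitude goat 2 the adjusted p of miR-99a-5p was 0.052 and that of miR-100-5p was 0.0804. For miR-100-5p it was also past 0.05 without the spleen of high-altitude goat 1 or 2 (0.0685 for both) or low-altitude goat 1 (0.0526). Of 9 forms with at least 10 CPM in a tissue, 2 were lower (13.0% over all miRNAs at that level), with a median of -1.09, and the 12 forms took 3.48% of spleen counts, between 0.753% in high-altitude goat 1 and 6.58% in low-altitude goat 3.

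The remaining lists had no call. Over all miRNAs with at least 10 CPM in a tissue, 12.2% were higher and 13.0% lower, and these lists are too short to set counts of 0 apart. Of 6 forms from the HOX gene clusters, miR-10 and miR-196, 0 were called, with a median of -0.79. The list took 2.95% of spleen counts, 12.4% in lung, 10.8% in muscle and 40.8% in kidney. Heart (1.33%) and liver (0.504%) lay below spleen. miR-10b-5p had 18896 ± 14947 CPM in spleen and 314594 ± 103758 in kidney. Its log2 fold change was -4.83 against kidney and 2.88 against liver. Against the mean of the others it was -1.21 (adjusted p = 0.0556), and -1.69 (adjusted p = 0.00862) without the spleen of high-altitude goat 1, where it had 47868 CPM. Of 4 forms of miR-194, miR-215 and miR-204, known from kidney and gut epithelium, 0 were called, with a median of -0.79. Among these miR-194-5p had 344 ± 94.8 CPM in spleen and 16949 ± 4634 in liver, with a log2 fold change of -1.32. miR-192 is not analysed here.

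The study lists the sequences of 11 mature forms that it chose for its own qPCR assays, and 4 of these were past both thresholds in spleen, beside 14.9% of all miRNAs in either direction. They are printed with the seed in capitals, since the seed sets which messenger RNAs a miRNA can pair with.
miR-106a-5p: aAAAGTGCttatagtgcaggtaga
miR-5011-3p: tATATATAcatacacaccatgt
miR-409-5p: aGGTTACCcgagcaactttgcat
miR-3069-1-3p: aTTGGCACgtcttggaatgc
The first 2 were higher in spleen. The seed of miR-106a-5p, AAAGTGC, is the one known from the miR-17 family. It had 4.92, 15.0, 0, 28.2, 37.4 and 0 CPM in the 6 spleens, with lung next at 8.25 ± 6.31 CPM and no read in muscle, so that spleen was at least 61.6-fold above muscle. miR-5011-3p had 14.5 ± 10.1 CPM in spleen and 8.17 ± 9.08 in liver, the next tissue, with a log2 fold change of 3.86 (adjusted p = 0.00525). It lost its call with no interaction (3.04, adjusted p = 0.0713) and with the low-altitude goats alone (1.13, adjusted p = 0.753).

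The last 2 of these were lower. miR-409-5p had 0.684, 4.45 and 1.999 CPM in the spleens of high-altitude goats 1, 2 and 3. In those of low-altitude goats 1, 2 and 3 it had 50.75, 77.8 and 83.2 CPM, which again sets the populations apart. By the paper's own comparison of the altitudes this is not a trait of spleen alone. Besides spleen, it reports the same direction of change for this miRNA in muscle, liver, kidney and heart. Kidney was highest with 262 ± 353 CPM, or 142.5 without that of low-altitude goat 1, which is below liver at 173 CPM. Lung had 8.23 CPM, which is below the spleen mean of 36.5 CPM. The log2 fold change of miR-409-5p, -1.52 (adjusted p = 0.0217), was -1.33 (adjusted p = 0.0613) with the goat as a block. With library totals alone it was -0.92 (adjusted p = 0.107), and with DESeq2 and with RLE factors -1.48, short of the fold threshold. The call was lost in 14 of 23 alternatives. Among these were the fits without the spleen of high-altitude goat 1 (-1.31), of high-altitude goat 3 (-1.44) or of low-altitude goat 1 (-1.38). For miR-3069-1-3p heart was highest with 132 ± 203 CPM, or 53.4 without that of low-altitude goat 1. It had reads in 3 of the 6 spleens, at 2.10 ± 3.22 CPM, or 1.05 without the spleen of low-altitude goat 3. On the log2 scale it differed by -4.73 (adjusted p = 0.0243), and its adjusted p was past 0.05 without the spleen of high-altitude goat 1 (0.0724), high-altitude goat 3 (0.0789), low-altitude goat 1 (0.061) or low-altitude goat 2 (0.0636).

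The difference between spleen and the other tissues was called different between the populations for 1 miRNA, 0.0719% of those tested. DESeq2 called 15, and with 3 goats against 3, a miRNA without a call is not shown to be alike in both. This was miR-542-3p, from a cluster on the X chromosome with miR-424 and miR-450. It had 7.79, 13.2 and 41.9 CPM in the spleens of high-altitude goats 1, 2 and 3, and 5.43, 5.29 and 6.45 CPM in those of low-altitude goats 1, 2 and 3. The high-altitude spleens are all above the low-altitude spleens, one of them far above. In lung the order was the reverse, with 5.69 ± 5.98 CPM at high and 62.8 ± 13.2 at low altitude (n = 3).

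Liver had 48.3 ± 24.3 and 129.8 ± 33.4 CPM of miR-542-3p at high and low altitude, muscle 8.99 ± 3.10 and 34.6 ± 14.2, kidney 257.5 ± 97.4 and 312 ± 150, and heart 45.3 ± 3.70 and 27.2 ± 5.35. The log2 difference of the fold changes was 2.95 (adjusted p = 0.0158, edgeR). It was 2.11 (adjusted p = 0.288) without the spleen of high-altitude goat 3, and its adjusted p was 0.135 without that of low-altitude goat 2 and 0.0719 without that of low-altitude goat 3. Over both populations spleen was lower than the other tissues by -2.61 (adjusted p = 5.35e-07). That call was lost with the high-altitude goats alone (-1.14, adjusted p = 0.176), and the low-altitude goats alone gave -4.22.

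As whole profiles the spleens were nearest to each other by mean correlation. Across 409 miRNAs with at least 10 CPM in a tissue, the mean Pearson correlation of log2 levels was 0.865 over the 15 pairs of spleens, and between 0.755 and 0.786 over the 36 pairs of a spleen with a library of another tissue. Heart was nearest at 0.786, then lung at 0.771, kidney at 0.766, liver at 0.764 and muscle at 0.755. The ranges of single pairs overlap between these tissues, so their order is not clear. Single pairs of a spleen and a heart reached 0.856, above the lowest pair of spleens, 0.814. Correlations are across miRNAs, which are not independent replicates.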

How the data were processed

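The values are counts per mature miRNA in 36 libraries, 1 deposited table per library, made by the authors. Base calls came from CASAVA 1.8 and mapping from Bowtie, both named in the submitters' processing notes, and miRNAs were detected with miRDeep, as the study's methods state. No further filter was applied. Counts were fitted in edgeR 4.0.16 (R 4.3.3) with TMM factors and quasi-likelihood F tests over 12 groups of tissue and population. Spleen was compared with the mean of the fitted log2 levels of the other 5 tissues, with each tissue, and these differences between the populations (an interaction). Adjusted p is Benjamini-Hochberg over 1391 miRNAs, with thresholds of 0.05 and an absolute log2 fold change of 1.5. Composition was compared per goat by exact permutation of signs over 6 goats (Python 3.11.15, SciPy 1.17.1). The study's methods state that each goat gave all 6 tissues; that equal numbers mark the same goat is taken from the labels and not stated. As a check, spleen and other tissues of the same goat were correlated over 233 miRNAs after removal of tissue and population means: the mean r of 30 pairs was 0.0914, between -0.203 and 0.383, with 15 above 0.1, so the pairing is weakly visible at most. The detection floor is 3 counts per library, and whether a count of 0 is an absence of the miRNA was not tested.

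Alternatives were DESeq2 1.42.0, RLE factors, library totals alone, a likelihood ratio test, a filter on low counts, forms of a precursor summed, miR-143-3p left out, the goat as a block, no interaction, 1 population alone, other fold thresholds, and each spleen library or goat left out. The procedure was also run on simulated data, where each miRNA had the same share in all tissues apart from folds set in spleen. That simulation lacks the differences among the other tissues, so it does not show how the fit performs with them.

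Named miRNAs are the 10 most abundant in spleen, those past both thresholds against each tissue (for higher ones, with reads in all 6 spleens), list members with at least 10 CPM in a tissue, given by counts and examples, and those that differ between the populations. Others were named after their values were seen, including miR-191 and miR-425 forms, miR-330-5p, miR-454-3p, miR-130b-3p, miR-301b-3p, miR-158-3p, miR-30a-5p, miR-30d-5p, miR-24-3p, miR-31-5p, miR-205-5p, let-7a-5p and miR-424-5p. The 15 lists are leukocyte, erythroid, miR-17-92 and miR-106b-25, smooth muscle, endothelial, mesenchymal, miR-99/100/125, miR-181, striated muscle, hepatocyte, kidney and gut epithelium, HOX clusters, epithelial, ciliated cell, and miR-183/96/182. Members and lists were chosen with earlier results of these data known. Neighbouring miRNA genes were taken from the RefSeq annotation of assembly ARS1.2, where 225 of 249 miRNA genes matched a listed precursor. No coordinates were used.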

Additional observations from a re-analysis of the deposited data

Results flagged for a closer look

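For 80 miRNAs or measures, the 6 goats' differences between spleen and the mean of the other tissues were screened for a goat far from the rest. Chance alone marks about 1 in 20 such groups, and 7 were marked. As log2(CPM + 1), spleen minus the mean of the other tissues, the goat far from the others had these values. For miR-142-5p it was high-altitude goat 1 at 0.90. For miR-19a-3p it was high-altitude goat 1 at 3.82. For let-7a-5p it was high-altitude goat 1 at -4.27, where that spleen has 0 counts, while the entry let-7a-3p, listed with a 5p sequence, has 12668.6 CPM there; in 16 libraries in all, let-7a-5p is at 0 and let-7a-3p at 799 CPM or more. For miR-24-3p it was high-altitude goat 1 at -3.35. For miR-30a-5p it was high-altitude goat 2 at -0.95, for miR-429-3p low-altitude goat 2 at -4.43, and for miR-424-5p high-altitude goat 3 at 0.57. Of the 7, 4 come from high-altitude goat 1, whose spleen has the lowest RNA integrity of the spleens in the study's table; the part of RNA quality in these values was not tested.

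Between the populations, spleen's difference from the other tissues differed for miR-542-3p by 2.95 on the log2 scale, tested as an interaction in edgeR (adjusted p = 0.0158).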

How the results depend on the processing

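For the 77 named miRNAs, alternatives gave 1770 log2 fold changes: 1605 had the same direction and side of the thresholds, 134 fell short of a threshold that the reported value passes, 27 passed one it does not, and 4 changed sign. These were let-7f-5p (-0.19, low-altitude goats alone), miR-148a-3p (0.06, library totals alone) and miR-223-3p (-2.81 without low-altitude goat 1, -3.82 without its spleen, against 2.74 without that of low-altitude goat 3). miR-142-3p kept its call in all 23. With the goat as a block 6 of 77 lost their call, with library totals alone 5.

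Counts that moved by more than 1.5 times were as follows. With DESeq2, 86 were lower than the mean and 15 differed between the populations. The likelihood ratio test gave 15 higher than each tissue. The filter on low counts gave 2 for the populations, and summed forms 0. High-altitude goats alone, with fewer samples, gave 64 higher, 32 lower, 1 higher than each and 1 lower than each. Low-altitude goats alone gave 68 higher, 4 higher than each and 4 lower than each. Library totals alone gave 14 higher than each, 0 lower than each and 0 for the populations, where the reported fit has 37 at an unadjusted p under 0.05. The goat as a block gave 95 higher and 1 lower than each, and the fit with no interaction 1 lower than each. A minimum log2 fold change of 1 gave 14 higher than each, and of 0 gave 90 lower, 15 higher than each and 5 lower than each. The 14.6 more miRNAs at 10 CPM in spleen became 42.1 at 1 CPM (p = 0.03125, exact permutation), 1.9 at 100 CPM (p = 0.7188), 47.6 with reads at the lowest library total (p = 0.0625) and 8.6 with forms summed (p = 0.09375). Apart from the fewer samples and the lower fold thresholds, the cause was not tested.

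With 1 spleen library or 1 goat left out, higher than the mean ranged from 102 to 134, lower from 45 to 59, higher than each from 3 to 9, lower than each from 1 to 4, and the populations from 0 to 5. For the populations, 5 were past the thresholds without the spleen of low-altitude goat 1, and 0 without that of high-altitude goat 3 or low-altitude goats 2 or 3. Lower than each was 4 without the spleen of low-altitude goat 1. Without a goat, the composition differences ranged from 16.6 to 20.7 points for the most abundant miRNA, from -3.95 to -2.16 points for the 10 most abundant, and from 9.56 to 18.4 miRNAs at 10 CPM.

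Depth limits rare miRNAs: 3 counts are 0.273 to 0.41 CPM in spleen. In spleen, 85 miRNAs had 0 counts in 1 library and at least 100 in another, and 21 of these are among the 150 called higher.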

Other observations

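Neighbouring miRNA genes were grouped when within 10 kb of each other. Of 33 groups, 14 had none of their forms with at least 10 CPM in a tissue called, 14 had some and 5 had all, and whether neighbours move together was not tested. Over all miRNAs at that level 12.2% were higher and 13.0% lower. miR-143 with miR-145 and miR-191 with miR-425 had all 4 of these forms called higher, with median log2 fold changes of 1.81 and 3.39. The group of miR-144 and miR-451 had 2 of 2 higher (median 5.71). miR-133b with miR-206 and miR-141 with miR-200c had 2 of 2 lower (medians -2.95 and -3.13). On the X chromosome, miR-424, miR-542 and miR-450 had 4 of 6 forms lower and a median of -2.42; miR-424-5p had 16.9 ± 8.46 CPM in spleen and 597.5 ± 394 in kidney. The group of 38 genes from miR-379 to miR-656 on chromosome 21, an imprinted cluster active in embryonic tissue and brain, had 8 of 31 forms lower, 0 higher and a median of -1.13, beside 13.0% lower over all miRNAs at that level. Its member miR-381-3p had 27.1 ± 15.9 CPM in spleen and 4647 ± 10440.3 in muscle, or 386.9 without the muscle of low-altitude goat 3, which had 25949 CPM.

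The arms of the miR-142 hairpin had a lower ratio in spleen on the median, with overlap. The 5p form had 8.37 ± 3.66 times the counts of the 3p form there, with 1.78 in high-altitude goat 1 and between 7.56 and 11.9 in the other 5 spleens. The median was 8.92 in spleen, 20.0 in lung, 20.7 in kidney, 21.7 in heart, 24.4 in liver and 29.2 in muscle. The lowest kidney (9.97) and heart (10.3) libraries lie inside the range of the spleens. The means of heart (49.3) and liver (38.3) rest on 1 library each, at 174.2 and 108.8, and were 24.3 and 24.2 without it. As a log2 ratio it was 2.85 in spleen and 4.63 in the other tissues of the same goats, lower in spleen in 6 of 6 goats (exact permutation p = 0.03125, the smallest that 6 goats allow, not adjusted).

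let-7a-5p had 0 counts in the spleen of high-altitude goat 1 and from 4222 to 8435 CPM in the other 5. The entry let-7a-3p, which the study lists with the sequence known for the 5p arm, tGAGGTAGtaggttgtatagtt (seed in capitals), had 12668.6 CPM in that spleen and from 44.4 to 82.8 CPM in the others. Over all 36 libraries, let-7a-5p was at 0 in 16, where let-7a-3p had at least 799 CPM, and let-7a-3p had at most 122 CPM in the other 20. The zeros of let-7a-5p thus need not be an absence of let-7a; whether the same reads were listed under either name was not tested. With forms of a precursor summed, the log2 fold change was 0.61 (adjusted p = 0.0789). The let-7a-5p log2 fold change of 4.45 (adjusted p = 0.0494) was lost in 14 of 23 alternatives, among them without the spleen of high-altitude goat 2, high-altitude goat 3, low-altitude goat 1, low-altitude goat 2 or low-altitude goat 3 (4.36, 4.12, 4.42, 4.49 and 4.42), with no interaction (1.39, adjusted p = 0.792) and with the goat as a block (5.77, adjusted p = 0.106). In the tables, 104 miRNAs have counts equal to another listed miRNA in all libraries; 0 of these are among those called higher and 2 among those called lower.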
